A study of Mus musculus with 4 samples.

Results

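The genes described here are 10 members of the fibroblast growth factor (FGF) signalling system, out of 37224 genes counted in mouse embryonic stem (ES) cells. They were chosen by name, with earlier results of these data known. The set holds the ligands Fgf4, Fgf5 and Fgf8, the receptors Fgfr1, Fgfr2, Fgfr3 and Fgfr4, and the feedback inhibitors Spry2, Spry4 and Dusp6. All 10 were present in the files and passed the filter on low counts, which left 20895 genes for testing. RNA sequencing libraries were made from 2 samples of ES cells labelled wild type and 2 labelled Smg6 deficient. Smg6 is the endonuclease of nonsense-mediated decay (NMD), which removes messages with a premature stop codon. The labels name the tissue as embryo. The allele, strain, sex, culture medium and passage of the cells were not given in the sources used here. Nor do they say if replicates are separate cultures or clones, so each p-value reflects the spread of these 4 libraries alone, and that spread may be technical.

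FGF ligands are secreted proteins that bind receptor tyrosine kinases together with heparan sulfate and activate the RAS, RAF, MEK and ERK kinase cascade. ES cells make their own FGF4, and its signal through ERK prepares them to leave naive pluripotency and is also needed to form primitive endoderm in the early embryo. ERK induces its own inhibitors, among them the Sprouty proteins and the ERK phosphatase DUSP6, so the transcripts of these inhibitors are widely read as a record of ERK activity. Transcript levels alone do not measure that activity, and no protein or phosphorylation was measured here.

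The deposited counts summed to between 130888768 and 155391181 per library. Smg6 was counted at 95.7 and 105 CPM (counts relative to a library size scaled by TMM) in wild-type replicates 1 and 2, and at 87.6 and 86.2 CPM in Smg6-deficient replicates 1 and 2 (log2 fold change -0.21, SE 0.083, edgeR adjusted p = 0.089). Reads lost from single exons are invisible in such a gene total, so the genotype labels are not checked by it. The ES cell factor Pou5f1 was high in every library, at 936 and 846 CPM in wild type, against 632 and 633 CPM in Smg6-deficient cells. The summed level of 6 ES cell markers was 3676 and 3007 CPM in wild type, against 2198 and 2221 CPM in Smg6-deficient cells, with 4 of 6 lower and none at 0. The summed level of 8 primitive endoderm markers was 117 and 90.6 CPM in wild type, against 823 and 1374 CPM in Smg6-deficient cells, with all 8 higher and none at 0. The summed level of 8 fibroblast markers, genes of possible feeder cells, was 1007 and 751 CPM in wild type, against 1236 and 1128 CPM in Smg6-deficient cells, with 2 of 8 higher and none at 0. Among all genes tested, 20.5% were called higher and 19.2% lower. In such bulk samples, fewer cells of a type and less RNA per cell cannot be told apart. The levels given below are those of the whole sample, and the part of possible feeder cells in them was not tested.

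Among the 10 genes, Smg6-deficient cells had 5 at a higher and 2 at a lower level at an adjusted p under 0.05 (edgeR quasi-likelihood test, adjusted by Benjamini-Hochberg over all genes tested). Over all 20895 genes, 20.5% were higher and 19.2% lower, together 39.7%, so the members' count stands against a background in which a call was common. The ligand Fgf4 fell, all 3 feedback inhibitors rose, Fgfr4 and Fgfr2 rose, and Fgfr1, the most abundant receptor, had nearly equal levels in both groups. A change of at least 2-fold was called for 4 of the 10 (Fgf4, Fgf8, Fgfr4 and Dusp6), against 13.5% of all genes tested. The call of Fgf8 depended on the setting. Because the 10 were chosen with earlier results known, such counts do not test the set. Wild-type and Smg6-deficient libraries were fully separated for 7 of the 10, against 73.2% of all genes tested. The median log2 fold change of the 10 was 0.25, and that of all genes tested was 0.008.

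**Figure D1:**
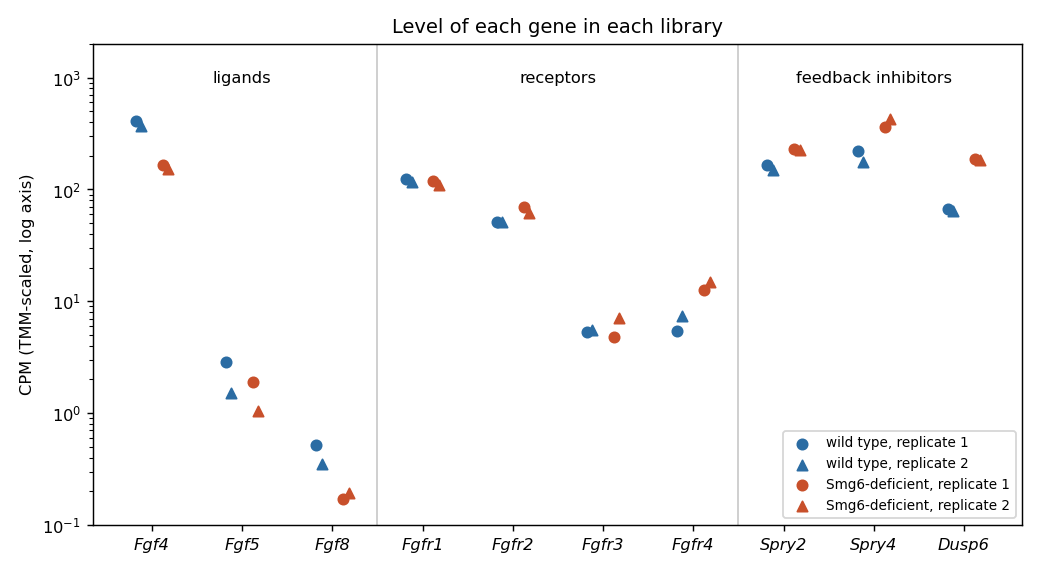
CPM on a log axis for each of the 10 genes (x axis), with 1 point per library: circles are replicate 1, triangles replicate 2, blue wild type and orange Smg6-deficient. Fgf4 lies lower in both Smg6-deficient libraries, at 167 and 151 CPM against 413 and 370.5 CPM, and Spry2, Spry4 and Dusp6 lie higher in both.

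The upstream sequences of Fgf4, Spry2 and Dusp6 are shown because Fgf4 fell while Spry2 and Dusp6 rose. Each run holds the 250 bases before the gene's start in RefSeq (GRCm38.p6), 5′ to 3′ on the gene's strand, and capitals mark GC boxes (GGGCGG on either strand). Fgf4 lies at chr7:144861136-144861385 on the plus strand, inside the longer GENCODE gene model but in none of its exons, Spry2 at chr14:105896820-105897069 on the minus strand, and Dusp6 at chr10:99262981-99263230 on the plus strand.
Fgf4: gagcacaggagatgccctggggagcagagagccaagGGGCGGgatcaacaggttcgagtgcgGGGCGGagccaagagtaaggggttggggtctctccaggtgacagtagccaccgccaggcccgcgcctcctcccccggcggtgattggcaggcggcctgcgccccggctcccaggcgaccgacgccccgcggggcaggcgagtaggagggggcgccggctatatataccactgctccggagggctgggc
Spry2: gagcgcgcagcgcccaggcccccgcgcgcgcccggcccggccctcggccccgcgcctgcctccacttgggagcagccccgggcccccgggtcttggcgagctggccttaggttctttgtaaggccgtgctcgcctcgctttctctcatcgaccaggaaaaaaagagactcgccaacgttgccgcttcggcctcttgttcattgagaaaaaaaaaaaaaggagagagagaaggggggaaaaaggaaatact
Dusp6: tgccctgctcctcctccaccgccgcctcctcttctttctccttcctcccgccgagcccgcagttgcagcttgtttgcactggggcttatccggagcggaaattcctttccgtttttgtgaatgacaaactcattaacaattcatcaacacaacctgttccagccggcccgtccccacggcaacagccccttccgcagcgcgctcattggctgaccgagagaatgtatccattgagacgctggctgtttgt
GC content was 71.2% for Fgf4, 62.4% for Spry2 and 56.4% for Dusp6. On both strands, the Fgf4 run held 2 GC boxes, and the Spry2 and Dusp6 runs held none. The window of Fgfr4, which rose, also held 2, those of the uncalled Fgf5 and Fgfr3 held at least 1, and that of Fgfr2, which rose, held none. At least 1 GC box was present in 32.7% of 32851 such upstream windows of RefSeq gene starts. None of the 3 runs held an ETS motif (CCGGAAGT, in 2.88% of windows), an AP-1 motif (TGANTCA, 6.75%), a cyclic AMP response element (TGACGTCA, 1.55%), an octamer (ATGCAAAT, 1.6%), a SOX motif (CATTGTT, 3.29%) or a TATA box spelled TATAAA (12.4%). A missing match says only that these letters are not in these windows.

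Fgf4 (ENSMUSG00000050917; GRCm38 chromosome 7, 144847367 to 144865243, plus strand, protein coding) encodes the main FGF made by ES cells, and its expression depends on the pluripotency factors Oct4 and Sox2. Its level was 413 and 370.5 CPM in wild-type replicates 1 and 2, and 167 and 151 CPM in Smg6-deficient replicates 1 and 2. Both Smg6-deficient libraries lay far under both wild-type libraries. The mean fell from 392 ± 30.2 to 159 ± 11.5 CPM (SD, n = 2), a log2 fold change of -1.30 (SE 0.098, edgeR adjusted p = 0.00031), so that wild-type cells held 2.46 times as much. Its fall ranged from -1.40 to -1.21 over 16 alternative settings, each past the threshold. Per length, Fgf4 was the most abundant of the 10 genes in wild type, at 112 ± 13.5 RPKM (the deposited read count scaled by gene length and library size), and ranked 4th in Smg6-deficient cells at 43.9 ± 4.83 RPKM. Beside this, Oct4 itself (Pou5f1) fell by 0.49 on the log2 scale (SE 0.09, edgeR adjusted p = 0.0062, though limma-trend on log2(RPKM + 1) gave an adjusted p of 0.063), and Sox2 stood at 533 and 417 CPM in wild type, against 406 and 398 CPM in Smg6-deficient cells (log2 fold change -0.24, edgeR adjusted p = 0.17, though -0.43 and 0.0015 without wild-type replicate 2, and -0.04 and 0.68 without wild-type replicate 1). Nanog, a further pluripotency factor, stood at 726 and 555 CPM in wild type, against 157 and 155 CPM in Smg6-deficient cells (log2 fold change -2.04, SE 0.14, edgeR adjusted p = 0.00025). Pou5f1, Sox2 and Nanog were named with their values known. The part of these levels in the fall of Fgf4 was not tested.

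Fgf5 (ENSMUSG00000029337; chromosome 5, 98254184 to 98277030, plus strand), a marker of the primed epiblast, was counted at 2.88 and 1.5 CPM in wild type, against 1.89 and 1.04 CPM in Smg6-deficient cells. The groups overlapped, and replicate 1 was higher than replicate 2 in each. The log2 fold change was -0.58 (SE 0.38, edgeR adjusted p = 0.27), short of the threshold. It depended on the library left out: -0.99 without wild-type replicate 2 and -0.02 without wild-type replicate 1. The value was -1.06 without Smg6-deficient replicate 1 and -0.20 without Smg6-deficient replicate 2. Other genes of the formative and primed epiblast were mostly higher: of 7 tested, 5 rose and 1 fell, with a median log2 fold change of 1.35. The shares over all genes tested were 20.5% higher and 19.2% lower. That median was not particular to this list: 7 trophectoderm markers had the same one, with 4 higher and 3 lower. Of 5 neuroectoderm markers, 1 rose and 1 fell, with a median of 0.08. Pou3f1, a transcription factor of that state, stood at 7.54 and 5.33 CPM in wild type, against 27.7 and 19 CPM in Smg6-deficient cells. It was picked as a riser after its value was seen. In the same list Zic2 fell by 1.14 on the log2 scale, and Otx2 was not called (log2 fold change -0.30).

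Fgf8 (ENSMUSG00000025219; chromosome 19, 45736798 to 45742915, minus strand), a ligand of the primitive streak and of later signalling centres, was close to the lower limit of these data. It had 72 and 47 counts in wild type and 26 and 26 counts in Smg6-deficient cells, or 0.514, 0.351, 0.17 and 0.193 CPM in that order. The groups did not overlap, and Fgf8 fell by 1.25 on the log2 scale (SE 0.33, edgeR adjusted p = 0.024). The call was lost with DESeq2 (log2 fold change -1.27, DESeq2 adjusted p = 0.062) and when any library other than wild-type replicate 2 was left out. The value was then -0.94 without wild-type replicate 1 (edgeR adjusted p = 0.058), -1.16 without Smg6-deficient replicate 1 (0.15) and -1.33 without Smg6-deficient replicate 2 (0.096). The summed level of 7 markers of primitive streak and mesoderm was also low, at 19 and 13.1 CPM in wild type, against 10 and 8.55 CPM in Smg6-deficient cells. Of these, 2 of 7 were higher and 3 lower, against 20.5% higher and 19.2% lower of all genes tested.

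The 3 ligands together summed to 122.5 and 102.7 RPKM in the wild-type libraries and to 48.09 and 40.96 RPKM in the Smg6-deficient libraries. Fgf4 made up 98.4% to 99.3% of that sum in every library, so the ligand total followed Fgf4. That share depends on which ligands were summed. Outside the sum, Fgf17 had a mean of 4.4 RPKM in wild type and 1.42 RPKM in Smg6-deficient cells, over Fgf5 and Fgf8. The 4 receptors summed to 21.76 and 20.17 RPKM in wild type and to 24.39 and 22.14 RPKM in Smg6-deficient cells. The ligand total therefore differed between the groups by far more than its replicates did, while the receptor totals lay close together. With 2 libraries against 2, an exact permutation test of a sum cannot give a two-sided p under 0.333, and none was run.

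**Figure D2:**
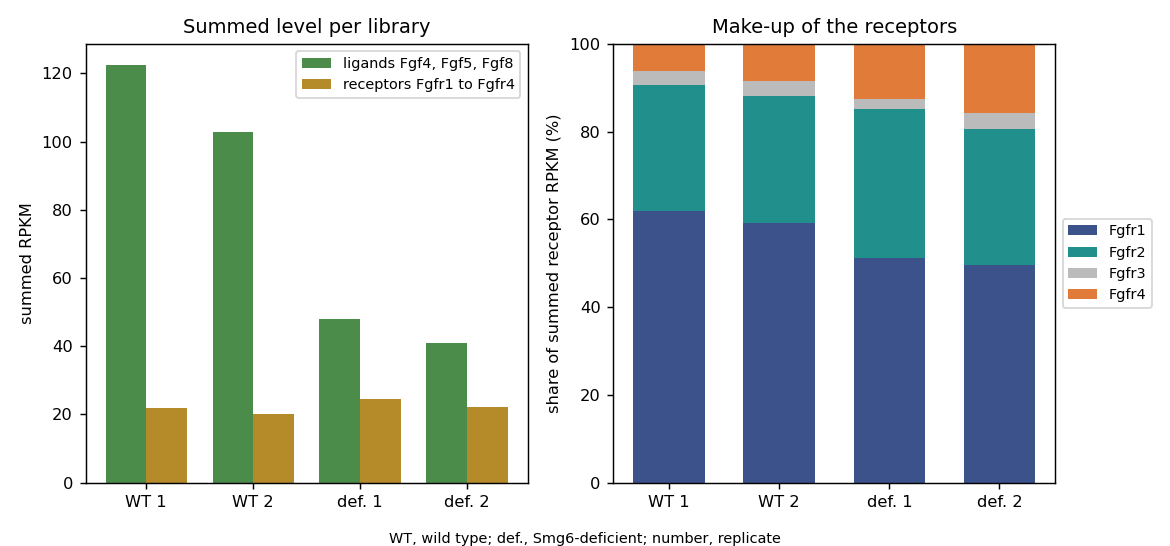
Left, summed RPKM of the 3 ligands (green) and the 4 receptors (ochre) in each library; right, the share of each receptor in the summed receptor RPKM, in percent. Bars are single libraries: the ligand sum is 122.5 and 102.7 RPKM in wild type against 48.09 and 40.96 RPKM in Smg6-deficient cells, and the Fgfr4 share is larger in both Smg6-deficient libraries.

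Fgfr1 (ENSMUSG00000031565; chromosome 8, 25513654 to 25575718, plus strand), the principal FGF receptor of ES cells, had 123 and 116 CPM in wild type, against 118 and 110.0 CPM in Smg6-deficient cells. The groups overlapped, and the log2 fold change was -0.07 (SE 0.083, edgeR adjusted p = 0.55). A change as large as that of Fgf4 or Dusp6 would have lain many SEs away from this value. Fgfr1 remained the most abundant receptor per length, at 12.7 ± 1.1 RPKM in wild type and 11.7 ± 1.04 RPKM in Smg6-deficient cells. Its share of the summed receptor RPKM was 61.9% and 59.1% in wild type and 51.2% and 49.7% in Smg6-deficient cells. Fgfr2 and Fgfr4 made up more of the sum in Smg6-deficient cells. The annotated Fgfr1 gene shares 164 exon bases with the antisense gene Gm16159, which had 2.01 and 2.79 CPM in wild type, against 2.25 and 2.16 CPM in Smg6-deficient cells.

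Fgfr2 (ENSMUSG00000030849; chromosome 7, 130162451 to 133123350, minus strand), the receptor that marks primitive endoderm precursors in the blastocyst, had 50.8 and 50.9 CPM in wild type, against 70 and 61 CPM in Smg6-deficient cells. The groups did not overlap, and Fgfr2 rose by a log2 fold change of 0.37 (SE 0.093, edgeR adjusted p = 0.021). Without Smg6-deficient replicate 1 the call was lost (log2 fold change 0.27, edgeR adjusted p = 0.23), as it was with a correction for gene length (0.22, 0.091) and in limma-trend on log2(RPKM + 1) (0.28, limma adjusted p = 0.14). The annotated gene shares 314 exon bases with Ctbp2, a transcriptional corepressor gene at its far end, which had 165 and 129 CPM in wild type, against 311 and 330.1 CPM in Smg6-deficient cells. Reads from the shared bases cannot be assigned, and the part of Ctbp2 in the rise of Fgfr2 was not tested.

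Fgfr3 (ENSMUSG00000054252; chromosome 5, 33721674 to 33737068, plus strand), a receptor best known from cartilage and bone growth, was low at 5.32 and 5.53 CPM in wild type, against 4.82 and 7.03 CPM in Smg6-deficient cells. The Smg6-deficient libraries lay on both sides of the wild-type libraries. Its log2 fold change was 0.13 (SE 0.20, edgeR adjusted p = 0.64), and it was -0.16 without Smg6-deficient replicate 2 and -0.01 with the gene length correction. It shares 998 exon bases with another annotated gene, which is not analysed here.

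Fgfr4 (ENSMUSG00000005320; chromosome 13, 55152640 to 55168759, plus strand), a receptor known from endoderm and liver, where it pairs with the coreceptor beta-Klotho, rose from 5.41 and 7.31 CPM in wild type to 12.5 and 15 CPM in Smg6-deficient cells. Both Smg6-deficient libraries lay over both wild-type libraries. The mean rose from 6.36 ± 1.34 to 13.8 ± 1.78 CPM (SD, n = 2), a log2 fold change of 1.11 (SE 0.18, edgeR adjusted p = 0.0036), and each of the 16 alternatives kept the call, with values from 0.74 to 1.33. Its share of the summed receptor RPKM was 6.25% and 8.53% in wild type and 12.4% and 15.6% in Smg6-deficient cells. Klb, the gene of beta-Klotho, stood at 0.757 and 0.762 CPM in wild type, against 5.93 and 11.3 CPM in Smg6-deficient cells (log2 fold change 3.50, SE 0.33, edgeR adjusted p = 0.0006). The primitive endoderm markers moved in the same direction as Fgfr2, Fgfr4 and Klb, and their summed level, like the level of Klb, was higher in Smg6-deficient replicate 2 than in replicate 1. Fgfr4 had that order too, at 12.5 and 15 CPM, and Fgfr2 had the opposite order of the Smg6-deficient replicates. An order within 1 pair of libraries says little. The part of endoderm cells in these rises was not tested.

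Dusp6 (ENSMUSG00000019960; chromosome 10, 99263231 to 99267489, plus strand), the cytoplasmic phosphatase that switches off ERK, had the largest rise of the 10 genes. It stood at 67.5 and 63.7 CPM in wild type, against 187 and 185 CPM in Smg6-deficient cells. The replicates of each group lay close together, and the groups far apart. The mean rose from 65.6 ± 2.72 to 186 ± 1.25 CPM (SD, n = 2), a 2.83-fold rise (log2 fold change 1.50, SE 0.079, edgeR adjusted p = 0.00015), with values from 1.41 to 1.56 over the 16 alternatives, each past the threshold. Per length, Dusp6 went from 20.2 ± 1.73 RPKM, well under Fgf4, to 55.4 ± 2.45 RPKM, over Fgf4.

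Spry4 (ENSMUSG00000024427; chromosome 18, 38586247 to 38601415, minus strand), a Sprouty protein that blocks signalling between the receptor and RAF, had 222 and 176 CPM in wild type, against 365 and 424 CPM in Smg6-deficient cells. The groups did not overlap, and Spry4 rose by a log2 fold change of 0.99 (SE 0.13, edgeR adjusted p = 0.002), from 199 ± 32 to 394 ± 41.5 CPM (SD, n = 2). Spry2 (ENSMUSG00000022114; chromosome 14, 105891947 to 105896819, minus strand), a related Sprouty protein that binds the adaptor GRB2 and the ubiquitin ligase CBL, had 166 and 149.7 CPM in wild type, against 232 and 225 CPM in Smg6-deficient cells. It rose by a log2 fold change of 0.54 (SE 0.086, edgeR adjusted p = 0.0037), with no overlap between the groups. Both rises passed the threshold in each of the 16 alternatives, at 0.81 to 1.18 for Spry4 and 0.45 to 0.63 for Spry2. In the Smg6-deficient libraries the 3 inhibitors took the top places among the 10 genes per length, with Spry2 at 91.6 ± 5.45 RPKM, Spry4 at 71.6 ± 4.86 RPKM and Dusp6 next.

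**Figure D3:**
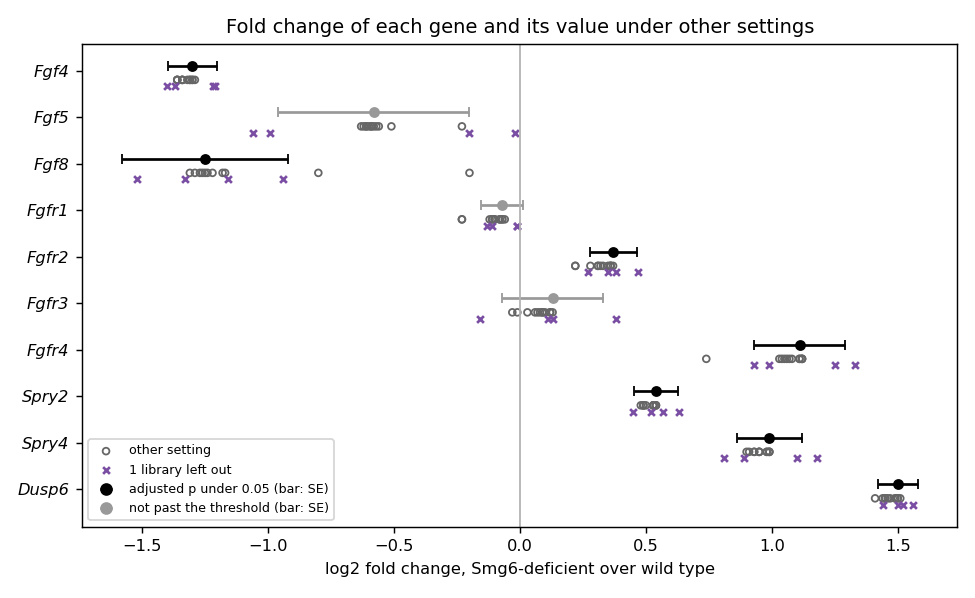
Log2 fold change of each gene, Smg6-deficient over wild type, with its SE (filled points; black past an adjusted p of 0.05, grey not), and below it the values under other settings (open circles) and with 1 library left out (crosses). Fgf4, Fgfr4, Spry2, Spry4 and Dusp6 keep their side of 0 and their call throughout, whereas Fgf5 spans -1.06 to -0.02 when a library is left out.

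In the order of levels per length, neighbouring genes had libraries that did not overlap, except for Fgf5 and Fgfr3, which overlapped in both groups. The wild-type order from high to low was Fgf4, Spry2, Spry4, Dusp6, Fgfr1, Fgfr2, Fgfr4, Fgf5, Fgfr3 and Fgf8. In Smg6-deficient cells Fgf4 stood behind Spry2, Spry4 and Dusp6, Fgfr3 stood before Fgf5, and the other genes kept their places.

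Annotated transcripts of the kind that NMD removes were found for 2 of the 10 genes. Fgfr1 and Fgfr2 each had 2 transcripts in GENCODE with an exon junction more than 50 nt after the stop codon, and both were annotated as NMD substrates. Such a transcript was present in 25.9% of 16455 tested coding genes. Fgf4, Fgf5, Fgf8, Fgfr3, Fgfr4, Spry2, Spry4 and Dusp6 had none, and Spry2 and Spry4 have only 1 annotated transcript each. Only the junction rule and the annotation were scored. The part of NMD in the change of any member was not tested. The longest annotated sequence after the stop codon was 3559 nt in Spry4, 2302 nt in Fgf4, 1190 nt in Dusp6 and 856 nt in Spry2. Gene counts cannot separate the transcripts of Fgfr1 or of Fgfr2.

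The other Sprouty, Spred and dual-specificity phosphatase genes and Il17rd were examined as a list of 15 feedback inhibitors, of which 14 were tested. Of these, 6 rose and 3 fell, with a median log2 fold change of 0.27. Among all genes tested, 20.5% were higher and 19.2% lower. Dusp4, a nuclear ERK phosphatase, stood at 41.2 and 41.2 CPM in wild type, against 84.9 and 104 CPM in Smg6-deficient cells (log2 fold change 1.19, SE 0.11, edgeR adjusted p = 0.00056). All 3 Spred genes, relatives of the Sprouty genes that hold RAS in check, rose: Spred3 by a log2 fold change of 1.31, Spred1 by 0.92 and Spred2 by 0.64. Il17rd, a membrane antagonist of FGF receptors also called Sef, stood at 53.7 and 49.4 CPM in wild type, against 111 and 91.1 CPM in Smg6-deficient cells (log2 fold change 0.97). Spred1, Spred2 and Il17rd were picked after their values were seen. Dusp16, a phosphatase that acts mainly on JNK and p38, fell by 0.96 on the log2 scale, and the X-linked ERK phosphatase gene Dusp9 fell by 0.89. Spry1, a further Sprouty gene, had 12.2 and 12.3 CPM in wild type, against 11.8 and 10.7 CPM in Smg6-deficient cells (log2 fold change -0.12, edgeR adjusted p = 0.41), and was likewise picked after its value was seen. X-linked genes were lower as a group: 56.7% of the 1040 tested were called lower, with a median log2 fold change of -0.76. The share of that shift in the fall of Dusp9 was not tested. The groups thus differ in X-linked level as well as in genotype label. For every gene described here, autosomal ones included, the design cannot tell these differences apart.

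Of 15 transcription factors and early genes that ERK activates, 7 rose and 2 fell, with a median log2 fold change of 0.34. The other 6 were not called, with log2 fold changes from -0.29 to 0.61. The shares over all genes tested were 20.5% higher and 19.2% lower. Etv4, an ETS factor of the FGF response, stood at 72.2 and 65.5 CPM in wild type, against 153 and 199 CPM in Smg6-deficient cells (log2 fold change 1.36, SE 0.14, edgeR adjusted p = 0.00073). Its relative Etv1 rose by a log2 fold change of 1.23, from 4.53 and 3.35 CPM to 9.93 and 8.52 CPM. Etv5, the third of these ETS factors, passed narrowly with a log2 fold change of 0.37 (edgeR adjusted p = 0.044), and was named with its value known. Its call ended with library size alone (0.31, edgeR adjusted p = 0.077), upper-quartile factors (0.33, 0.068) and the filter at 50 counts (0.33, 0.071). The gene length correction also ended it, alone (0.29, edgeR adjusted p = 0.092) or with the replicate block (0.30, 0.053). So did limma-trend at either pseudocount (limma adjusted p = 0.12). Without Smg6-deficient replicate 1 the value was 0.29. Elk1, an X-linked ETS factor that ERK phosphorylates, fell by 1.22 on the log2 scale, and Ier3, an early response gene, fell by 0.54, a call that ended when Smg6-deficient replicate 1 was left out (-0.50, edgeR adjusted p = 0.05 after rounding). Without that library 4 genes of the list rose and 1 fell.

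**Figure D4:**
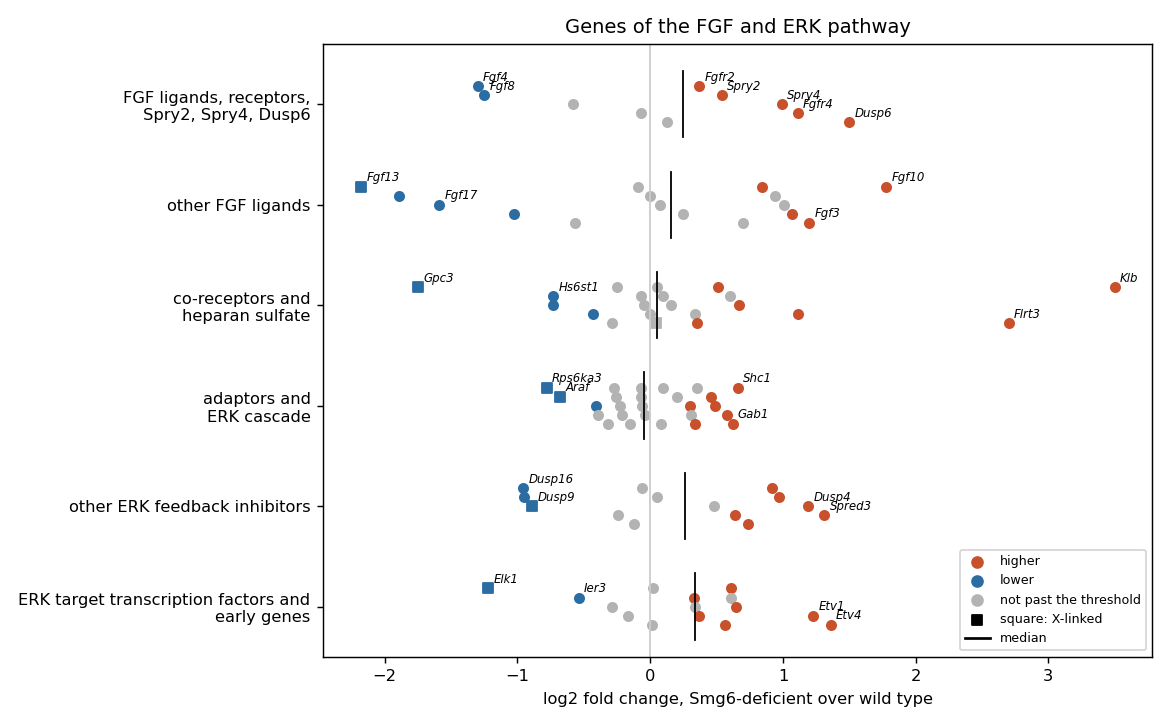
Log2 fold change (x axis, Smg6-deficient over wild type) of each tested gene in the 10-gene set and in the 5 pathway lists, coloured by call, with squares for X-linked genes and a vertical line at the median of each list. The medians lie between -0.05 for adaptors and the ERK cascade and 0.34 for ERK targets.

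Between receptor and ERK, 7 of 26 adaptors and kinases rose and 3 fell, together 10 of 26 against 39.7% of all genes tested, with a median log2 fold change of -0.05. Shc1, an adaptor that binds activated receptors, rose from 87.4 and 82.5 CPM in wild type to 132 and 136 CPM in Smg6-deficient cells (log2 fold change 0.66). Gab1, a docking protein, rose by 0.62, and Ptpn11, the phosphatase SHP2 that RAS activation needs, rose by 0.58, the latter picked after its value was seen. The genes that fell were the X-linked kinases Rps6ka3 (by 0.78 on the log2 scale) and Araf (by 0.68), and the adaptor Grb2 (by 0.41), which was named with its value known. The call of Grb2 ended when Smg6-deficient replicate 1 (-0.43, edgeR adjusted p = 0.059) or replicate 2 (-0.38, 0.094) was left out. The number that fell was 6 without wild-type replicate 1, 7 without wild-type replicate 2 and 8 with the gene length correction.

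Other FGF ligands were low and moved both ways. Of 19 listed, 16 were tested, and 4 rose and 4 fell, near the 20.5% higher and 19.2% lower of all genes tested. Fgf10, a ligand made by embryonic mesenchyme, stood at 3.33 and 1.83 CPM in wild type, against 6.27 and 11.5 CPM in Smg6-deficient cells (log2 fold change 1.78, SE 0.37, edgeR adjusted p = 0.0095). Fgf3, a ligand of inner ear development, rose by a log2 fold change of 1.20. Fgf17, a close relative of Fgf8, stood at 10.3 and 6.86 CPM in wild type, against 3.51 and 2.18 CPM in Smg6-deficient cells (log2 fold change -1.59, edgeR adjusted p = 0.0054). Fgf13, an X-linked family member that stays inside the cell, fell by 2.18 on the log2 scale. Without Smg6-deficient replicate 2, 2 of these ligands rose.

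Of 21 coreceptor and heparan sulfate genes, 6 rose and 4 fell, with a median log2 fold change of 0.05. Calls were common over all genes tested, with 20.5% higher and 19.2% lower. Beside Klb, the largest rise was that of Flrt3, a membrane protein that binds FGF receptors, with 7.96 and 5.81 CPM in wild type, against 30.9 and 58.4 CPM in Smg6-deficient cells (log2 fold change 2.70, SE 0.31, edgeR adjusted p = 0.0012). Like the summed primitive endoderm markers, Flrt3 was higher in Smg6-deficient replicate 2 than in replicate 1, and the part of those cells was not tested. Hs6st1, which adds the 6-O-sulfates that FGF receptors recognise, fell by 0.73 on the log2 scale, with 194 and 198 CPM in wild type, against 118 and 118 CPM in Smg6-deficient cells. Glce, the epimerase of heparan sulfate synthesis, also fell by 0.73, and was named with its value known. Gpc3, an X-linked heparan sulfate proteoglycan, fell by 1.75 on the log2 scale.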

How the data were processed

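Per the labels' protocols, TRIzol RNA (2.5 µg of total RNA each) went into TruSeq v2 libraries, which were read as single reads of 50 bases. The submitters' processing notes name TopHat2 2.0.9 and mm10. The sources used here do not name the counter, annotation release or strand setting. The kit does not mark strand, so overlapping genes cannot be separated. The authors deposited whole-number read counts per gene and RPKM values for each library. The length and read total behind the RPKM were not given.

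The main test was the quasi-likelihood test of edgeR 4.0.16 (R 4.3.3) with genotype as its term, after filterByExpr at a minimum count of 10 and TMM scaling, with Benjamini-Hochberg adjustment over 20895 genes and a threshold of 0.05. CPM is relative to TMM-scaled library size, and SE is the absolute log2 fold change over the square root of F. RPKM served for levels between genes and for sums. Replicates differed beyond counting noise in both groups (chi-square over degrees of freedom, 74.3 and 42.0). Positions, symbols and transcripts came from GENCODE M21 (GRCm38, which mm10 names), and 35449 identifiers had a symbol. Upstream sequences came from a table of RefSeq gene starts (GRCm38.p6), and those of 7 of the 10 members were used. The edgeR step was also run on simulated counts with the same dispersion for every gene and few changed genes. That setting is simpler than these data, so the run does not vouch for the calls made here.

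The members and lists were chosen with earlier results of these data known. Named by rule were the 10 members and, from each pathway list, up to 2 genes that rose and 2 that fell with the smallest adjusted p. Other genes were named after their values were seen, among them Spred1, Spred2, Il17rd, Grb2, Ptpn11, Etv5, Glce, Spry1, Pou5f1, Sox2, Nanog, Pou3f1 and Ctbp2. The 96 pathway genes formed 5 lists, and 1 of them (Spry3) was not matched. Alternatives were DESeq2 1.42.0 size factors and Wald test, upper-quartile factors, library size alone, no filter (at least 1 count), at least 50 counts in 2 libraries, limma-voom and limma-trend (limma 3.58.1) on log2(RPKM + 1) or log2(RPKM + 0.1), a replicate block, a gene length correction (loess offset per library), and leaving out each library.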

Additional observations from a re-analysis of the deposited data

How the results depend on the processing

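Of the member fold changes under 16 alternatives, 143 kept direction and side of the threshold, 9 lost the call, 4 gained it and 3 changed sign. Fgf8 had no value at 50 counts in 2 libraries, where it was filtered out. Of the values of other named genes, 513 kept both, 13 (of Etv5, Grb2, Pou5f1 and Ier3) lost the call and 2 (of Sox2) gained it. The cause was not tested. By setting, the log2 fold change of Fgf8 was -1.27 with DESeq2's Wald test (call lost). That of Fgfr2 was 0.28 and 0.31 on log2(RPKM + 1) and log2(RPKM + 0.1), and 0.22 with the gene length correction, alone or with the block (call lost). That of Fgfr3 was -0.01 with the length correction and -0.03 with the length correction and the block (sign changed, not called). The replicate numbers are shared by the groups without a stated pairing, and the deviations of same-numbered libraries correlated at 0.155 across genes. With the replicate block, Fgf5 gained a call at -0.57, 3 members were lower, and 7 adaptors and cascade genes fell. With the block and the length correction together, Fgf5 (-0.60) and Fgfr1 (-0.23) gained a call, 4 members were lower and 9 adaptors fell.

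Leaving out 1 library moved Fgf5 between -1.06 and -0.02, Fgf8 between -1.52 and -0.94, Fgfr2 between 0.27 and 0.47 and Fgfr3 between -0.16 and 0.38. The members lower numbered 1 to 3. Over all genes, 2805 to 5578 were higher and 2300 to 4899 lower, against 4285 and 4004 with all libraries. Other ligands higher numbered 2 to 5, adaptors lower 2 to 7, ERK targets higher 4 to 9 and ERK targets lower 1 to 3.

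Of the members, 1 was lower with DESeq2's Wald test and 1 at 50 counts. With limma-trend, 2700 genes at a pseudocount of 1 and 2643 at 0.1 were higher, 4 adaptors and 3 ERK targets were higher, and 2 other ligands were lower, the same at either pseudocount. Adaptors lower numbered 5 with DESeq2 size factors, 6 with upper-quartile factors, 7 each with library size alone, 50 counts and DESeq2's Wald test, and 8 with the length correction, against 3. No scaling moved the median of all genes by more than 0.057 on the log2 scale. Receptor and ligand shares from counts over implied length differed from those of RPKM by less than 1 SD. That length was itself derived from the deposited counts and RPKM. The comparison could therefore show little but rounding and does not test the shares. Fgf8, at 26 to 72 counts, is the member that depth limits most.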
